A study of Mus musculus with 6 samples.

Results

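The synaptotagmins are a family of vesicle and membrane proteins, and 10 of their genes (Syt1, Syt2, Syt3, Syt4, Syt5, Syt7, Syt11, Syt12, Syt13 and Syt17) were followed in prefrontal cortex tissue. The mice were of strain C57BL/6J and 28 days old (postnatal day 28). The genes were chosen by symbol: each of the 10 symbols matched exactly 1 identifier among the 17889 rows of the deposited gene table, through GENCODE release M21. All 10 passed the filter for testing (a mean of 10 or more over the 6 samples), which left 14969 genes, and the lowest mean of a member was 891 normalized counts. Messenger RNA had been sequenced in 3 wild-type (WT) samples and in 3 samples titled Hetero whose genotype is given as Cyfip2 mutant. The protein of the mutated gene belongs to the WAVE complex, which controls actin assembly. The labels name C57BL/6J for both groups and give no allele, no sex and no treatment, and they do not say whether each sample is 1 animal or a pool. The p-values therefore rest on sample-to-sample spread, part of which may be technical.

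Synaptotagmins carry a pair of C2 domains, and in several members these domains bind calcium and phospholipid membranes together with the SNARE proteins that fuse a vesicle with the plasma membrane. Syt1 and Syt2 are fast calcium sensors of synchronous transmitter release, and Syt7 is a slower, high-affinity sensor linked to asynchronous release and facilitation. Other members, such as Syt4, Syt11, Syt12 and Syt13, lack calcium-binding residues in one or both C2 domains. In the forebrain Syt1 serves most fast synapses, while in the cortex Syt2 is known from the terminals of parvalbumin interneurons.

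By GENCODE M21 on GRCm38 all 10 are protein-coding genes, and the values are of the whole gene. Syt1 (ENSMUSG00000035864) spans chromosome 10 from 108497650 to 109010982 on the minus strand, and Syt2 (ENSMUSG00000026452) spans chromosome 1 from 134646677 to 134762593 on the plus strand. Syt7 (ENSMUSG00000024743) spans chromosome 19 from 10389090 to 10453180 on the plus strand, and Syt12 lies on the same chromosome from 4445908 to 4477447. Chromosome 7 carries Syt3 from 44384102 to 44400187, Syt5 from 4539765 to 4547541 and Syt17 from 118380717 to 118448222. Syt11 lies on chromosome 3 from 88744700 to 88775164, and Syt13 on chromosome 2 from 92915098 to 92956058.

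Since the shares of paralogs rest on how reads were assigned, the coding sequences of the members were compared first. The closest pair was Syt1 and Syt2, with 75.3% identical bases over 1239 aligned positions. Syt2 and Syt5 followed at 66.7%, Syt1 and Syt5 at 65.0%, and Syt4 and Syt11 at 60.9%. A window of 120 coding bases was placed around the longest run shared by Syt1 and Syt2, which is 26 bases long. It was not sought as the window most alike in that pair. Its bases are shown for Syt1 and for 4 paralogs. They are from the GENCODE M21 transcripts on GRCm38, written 5′ to 3′ on the coding strand, and capitals mark bases that differ from Syt1.
Syt1: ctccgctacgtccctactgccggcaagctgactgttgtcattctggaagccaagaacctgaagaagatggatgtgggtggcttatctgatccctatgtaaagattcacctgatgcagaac
Syt2: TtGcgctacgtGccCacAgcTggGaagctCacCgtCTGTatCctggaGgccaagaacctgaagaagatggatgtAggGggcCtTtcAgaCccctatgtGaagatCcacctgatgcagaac
Syt5: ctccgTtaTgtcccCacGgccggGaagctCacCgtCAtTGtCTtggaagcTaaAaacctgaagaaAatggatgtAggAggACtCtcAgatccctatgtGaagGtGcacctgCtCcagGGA
Syt3: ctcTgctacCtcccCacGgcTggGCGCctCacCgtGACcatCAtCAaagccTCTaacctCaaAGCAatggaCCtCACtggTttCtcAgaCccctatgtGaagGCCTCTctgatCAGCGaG
Syt7: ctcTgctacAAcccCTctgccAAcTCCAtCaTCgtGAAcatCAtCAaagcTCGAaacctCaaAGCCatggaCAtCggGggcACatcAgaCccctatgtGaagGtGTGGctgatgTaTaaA

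In this stretch, which starts at coding base 838 of Syt1, Syt2 differed from Syt1 at 23 of the 120 bases, Syt5 at 30, Syt7 at 47 and Syt3 at 48. Over all annotated transcripts, untranslated parts included, Syt1 shared no stretch of 31 bases with any other member. The only such stretches between members were 2 in Syt2, 0.0262% of its distinct 31-base stretches, and 2 in Syt7, 0.0259%. Sharing with genes outside the 10 was larger for Syt11, at 7.23% of its 31-base stretches, and for Syt12, at 1.99%, and was at most 0.542% in the other members. On the opposite strand, Syt12 shared 18.2% of its stretches with other transcripts, mostly A930001C03Rik. The figure was 12.3% for Syt4, all of it with the antisense gene Gm26658, and 4.80% for Syt7, mostly with Gm26859. None of these 3 opposite-strand genes had a row in the table. The library kit is a stranded one per the labels' protocols, but whether the counting used strand is not given in the sources used here, so the values of Syt12, Syt4 and Syt7 carry that uncertainty.

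Syt1 had the highest undivided normalized count of the members. This value (the authors' value per gene, scaled between samples) read 56138, 54826 and 51435 in WT samples 1 to 3 and 56938, 56782 and 51199 in Hetero samples 1 to 3. The third sample of each group was the lowest of its group, and the groups overlapped. The other members ranged downward from Syt11, at 21491 to 23362 normalized counts over the 6 samples, to Syt17, at 729 to 1050. The summed normalized count of the 10 members was 113936 ± 2378 in WT against 114087 ± 3637 in Hetero (n = 3 each, SD). This was 0.372% ± 0.0085 of the column total in WT against 0.377% ± 0.0086 in Hetero (n = 3 each, SD).

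**Figure D1:**
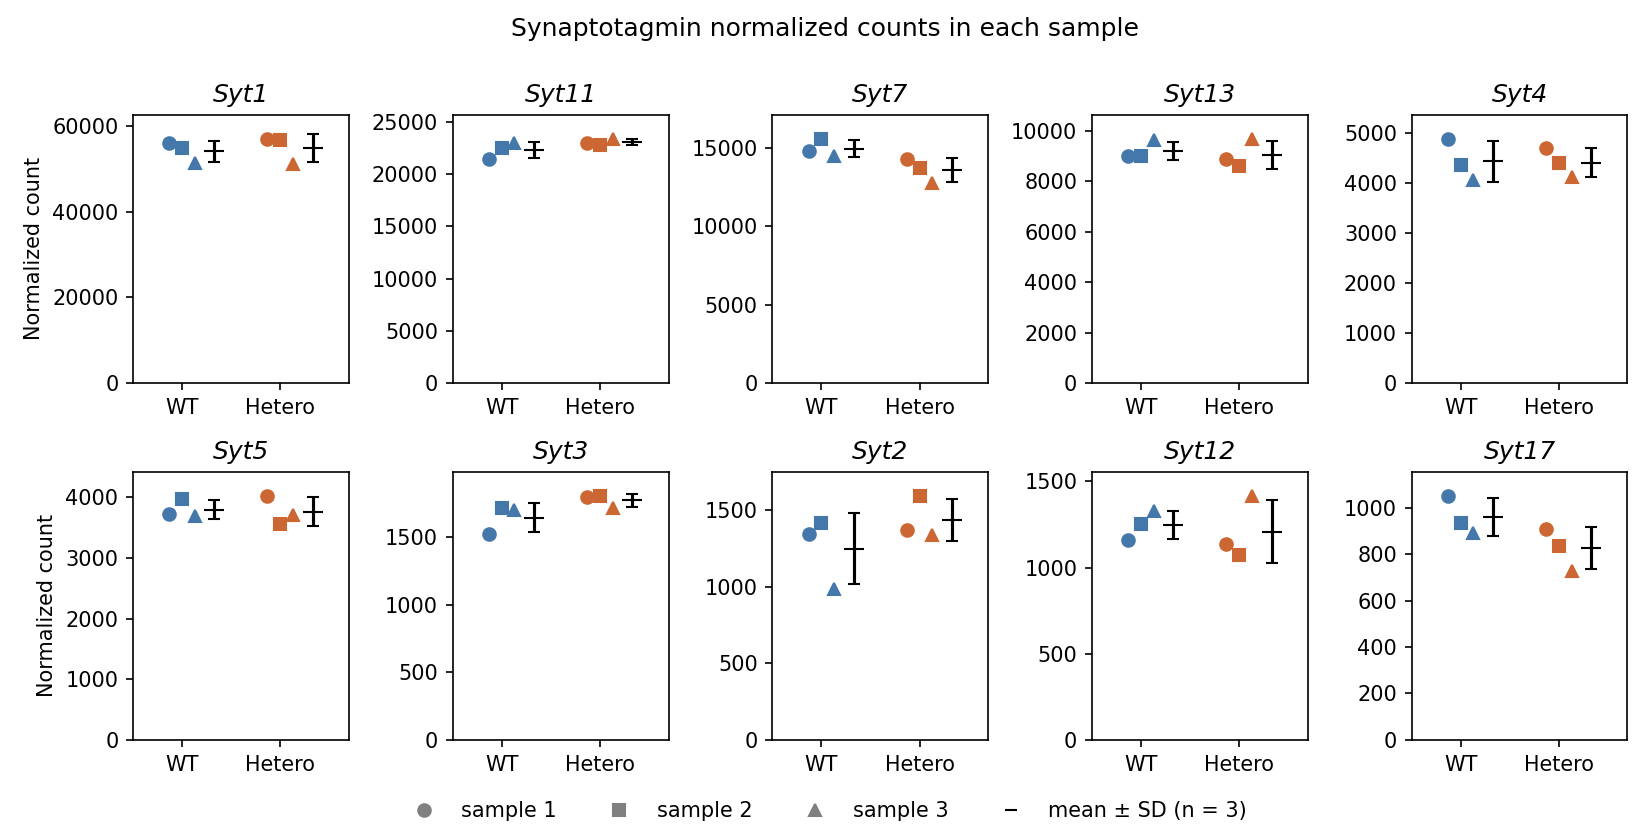
Normalized count (y axis, from 0) of the 10 synaptotagmins in 3 WT and 3 Hetero samples, with 1 panel per gene in order of abundance; symbols mark the sample number and the bar beside them is the mean ± SD. The Hetero points of Syt7 lie at 12761 to 14277, below its WT points at 14491 to 15533; only Syt7 and Syt3 show no overlap of the groups.

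Levels of different genes can be compared only per length, and the order of the members depended on which length was used. On the main scale, the normalized count per kilobase of the principal transcript (the longest with the best APPRIS rank), Syt1 held 33.6% ± 1.13 of the summed level of the 10 members (SD over 6 samples). Syt7 held 31.5% ± 1.37 and Syt11 held 13.4% ± 0.70 on the same scale. Syt13 followed at 7.22%, Syt5 at 6.42%, Syt4 at 3.37%, Syt3 at 1.94%, Syt12 at 1.02%, Syt17 at 0.956% and Syt2 at 0.578%. The large share of Syt7 rested on an annotated length of 1344 bases, nearly the same as its coding length of 1341 bases, so this transcript model holds almost no untranslated sequence. The 15 annotated Syt7 transcripts ran from 236 to 6624 bases.

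With the longest annotated transcript as the length, a choice made after the data were seen, Syt7 held 8.54% ± 0.50 of the summed level (SD over 6 samples). With the union of all exons its share was 9.98%, with the coding length 11.9%, and of undivided normalized counts it was 12.5%. Syt1 ranked first under each of these 5 definitions, with shares between 33.6% and 48.5%. Syt11 ranked behind Syt1 under 4 of them and behind Syt1 and Syt7 on the main scale, with shares between 13.4% and 22.9%. Syt2 and Syt17 exchanged the last place between definitions: Syt2 was last per kilobase of principal and of longest transcript, and Syt17 was last in the other 3 orders. Which transcript forms were present is not resolved in a table of 1 value per gene.

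**Figure D2:**
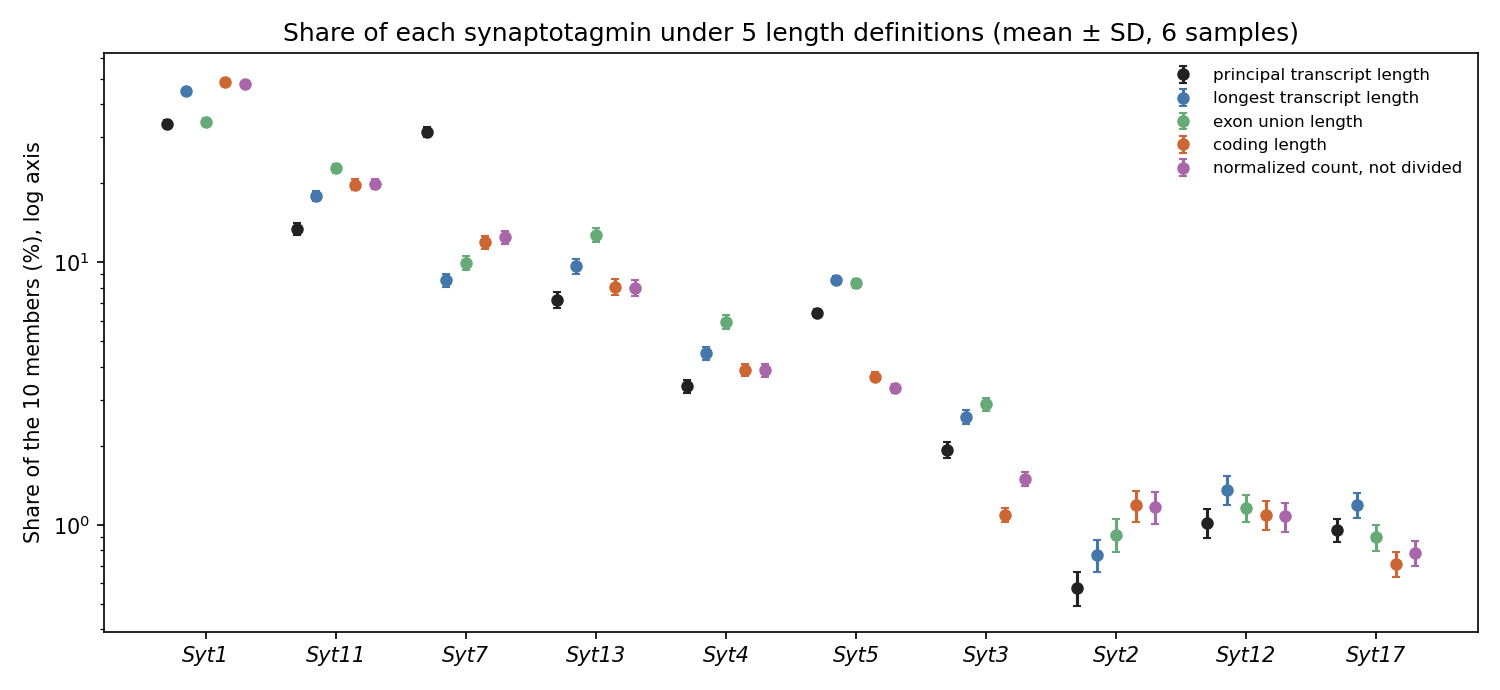
Share of each synaptotagmin in the summed level of the 10 members (y axis, percent, log axis), as the mean ± SD over 6 samples, for 4 lengths and for undivided normalized counts. Syt7 moves from 31.5% with its short principal transcript to between 8.54% and 12.5% with the other definitions, while Syt1 is the highest member in each.

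Neighbours in the order of levels were set against the spread over the 6 samples. On the main scale the levels of Syt1 (10622 to 11813 per kilobase) and Syt7 (9495 to 11557) overlapped, and Syt1 was above Syt7 in 4 of 6 samples. Syt13 was above Syt5 in 6 of 6 samples although the ranges over samples touched (2286 to 2573 against 2038 to 2299 per kilobase). Syt12 and Syt17 overlapped as well, with Syt12 above in 3 of 6 samples. The remaining 6 steps of the order did not overlap, and the ratio of the neighbours' mean levels there lay between 1.66 and 2.35. Among the 14560 protein-coding genes tested, 0.577% had a higher level per kilobase than Syt1. For Syt11 the share of genes above it was 2.22%, for Syt13 4.91%, and for Syt2 53.1%.

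The first check of the comparison was the targeted gene. Cyfip2 had a mean normalized count of 29977 ± 2260 in WT against 20160 ± 1630 in Hetero (n = 3 each, SD), and its groups did not overlap. In the limma fit over all 14969 genes its ratio of Hetero to WT was 0.672, with an unadjusted p of 2.08e-05 and a Benjamini-Hochberg adjusted p of 0.312. The libraries were estimated from the spacing of low values to hold about 25500000 to 43900000 reads, Hetero sample 3 being the deepest. Excitatory neurons of the cortex were well represented, with Slc17a7, the vesicular glutamate transporter of cortical neurons, between 51008 and 58032 normalized counts and the cortical transcription factor gene Tbr1 between 3829 and 3939. The striatal dopamine receptor gene Drd2 was between 18.5 and 25.2.

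No synaptotagmin passed the threshold in Hetero against WT. In the limma fit 0 of the 10 members had an adjusted p under 0.05, as did 0 of the 14969 genes tested (0%). At an unadjusted p under 0.05 there was 1 member, Syt7, against 573 genes or 3.83% of all tested (2.17% lower, as Syt7 was). The fitted value was lower in 6 members and higher in 4, where 50.9% of all tested genes were lower. The median log2 change was -0.01 over the members and below 0.01 in size over all genes. The groups did not overlap for 2 of 10 members, Syt7 and Syt3, 1 in each direction, against 8.72% of all genes, of which 4.32% were lower and 4.40% higher. The adjusted p of every member was 0.9996. In tissue RNA, fewer cells of a type and less RNA per cell cannot be told apart.

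The fast calcium sensors came first. Syt1 had a mean of 54133 ± 2427 normalized counts in WT against 54973 ± 3269 in Hetero (n = 3 each, SD). Its ratio of Hetero to WT was 1.01 with a 95% interval of 0.931 to 1.11. Syt2 read 1339, 1416 and 982 normalized counts in WT samples 1 to 3 and 1366, 1590 and 1339 in Hetero samples 1 to 3. WT sample 3 was low and Hetero sample 2 was high, and the groups overlapped. The ratio was 1.16 (95% interval 0.935 to 1.44), and without WT sample 3 the log2 change was 0.05 in place of 0.21. Syt5, another calcium-binding member, had 3799 ± 158 normalized counts in WT against 3767 ± 234 in Hetero (n = 3 each, SD), a ratio of 0.991 (95% interval 0.899 to 1.09).

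Syt7, the slow high-affinity sensor, had normalized counts of 14766, 15533 and 14491 in WT samples 1 to 3. In Hetero samples 1 to 3 it read 14277, 13705 and 12761. Every Hetero value was below every WT value and Hetero sample 3 was the lowest of all. The fitted log2 change was -0.14 (standard error 0.06) and the ratio 0.909 (95% interval 0.834 to 0.991). The unadjusted limma p was 0.0341 and the adjusted p 0.9996, so the difference did not pass the test over all genes. The unadjusted limma p was 0.0915 without trend and robust fitting. It was 0.056 without WT sample 1, 0.133 without WT sample 2, 0.0601 without Hetero sample 2 and 0.0806 without Hetero sample 3, so the nominal call was lost in each of these fits. Without Hetero sample 3, the deepest library by the estimate from low values, the log2 change was -0.09. Syt3, which has been linked to removal of AMPA receptors from the postsynaptic membrane, differed the other way. It read 1525, 1715 and 1703 normalized counts in WT and 1802, 1807 and 1717 in Hetero. The groups were separated only narrowly, by WT sample 2 at 1715 and Hetero sample 3 at 1717, and the ratio was 1.08 (95% interval 0.973 to 1.20). Without WT sample 1 the log2 change of Syt3 was 0.05 in place of 0.11.

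Syt4 and Syt11 form a pair whose first C2 domain carries a serine in place of a calcium-binding aspartate. Syt4, also known as an activity-induced gene, lies on chromosome 18 from 31437808 to 31447406 (GRCm38). It read 4880, 4373 and 4055 normalized counts in WT samples 1 to 3 and 4707, 4400 and 4133 in Hetero samples 1 to 3. The third sample of each group was the lowest and the first the highest, and the ratio of Hetero to WT was 0.996 (95% interval 0.883 to 1.12). Syt11, which lies at a locus linked to Parkinson's disease in humans, had 22324 ± 763 normalized counts in WT against 23053 ± 295 in Hetero (n = 3 each, SD). Its groups overlapped and its ratio was 1.03 (95% interval 0.963 to 1.11). Without WT sample 1 its log2 change was 0.02 in place of 0.05. The 10 activity-regulated genes listed beside them (Fos, Arc, Npas4 and others) had a mean centred log2 level of -0.12 to 0.15 (WT) and -0.21 to 0.36 (Hetero), with sample 3 the highest of each group. Their part in the low Syt4 of the third samples was not tested.

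The remaining members are Syt12, Syt13 and Syt17. Syt12, a target of protein kinase A linked to presynaptic plasticity, read 1161, 1252 and 1328 normalized counts in WT and 1137, 1073 and 1415 in Hetero, a ratio of 0.964 (95% interval 0.819 to 1.13). Syt13 had 9216 ± 365 normalized counts in WT against 9061 ± 556 in Hetero (n = 3 each, SD), a ratio of 0.982 (95% interval 0.897 to 1.08). In both genes the third sample was the highest of its group. Syt17, the B/K protein, which lacks a transmembrane segment, read 1050, 935 and 891 normalized counts in WT and 909, 836 and 729 in Hetero. Hetero sample 1 lay above WT sample 3, so the groups overlapped, and Hetero sample 3 was the lowest. The fitted log2 change was -0.22 (standard error 0.10) and the ratio 0.859 (95% interval 0.737 to 1.00), with an unadjusted limma p of 0.0505 and an adjusted p of 0.9996. Without Hetero sample 3 the log2 change was -0.13.

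**Figure D3:**
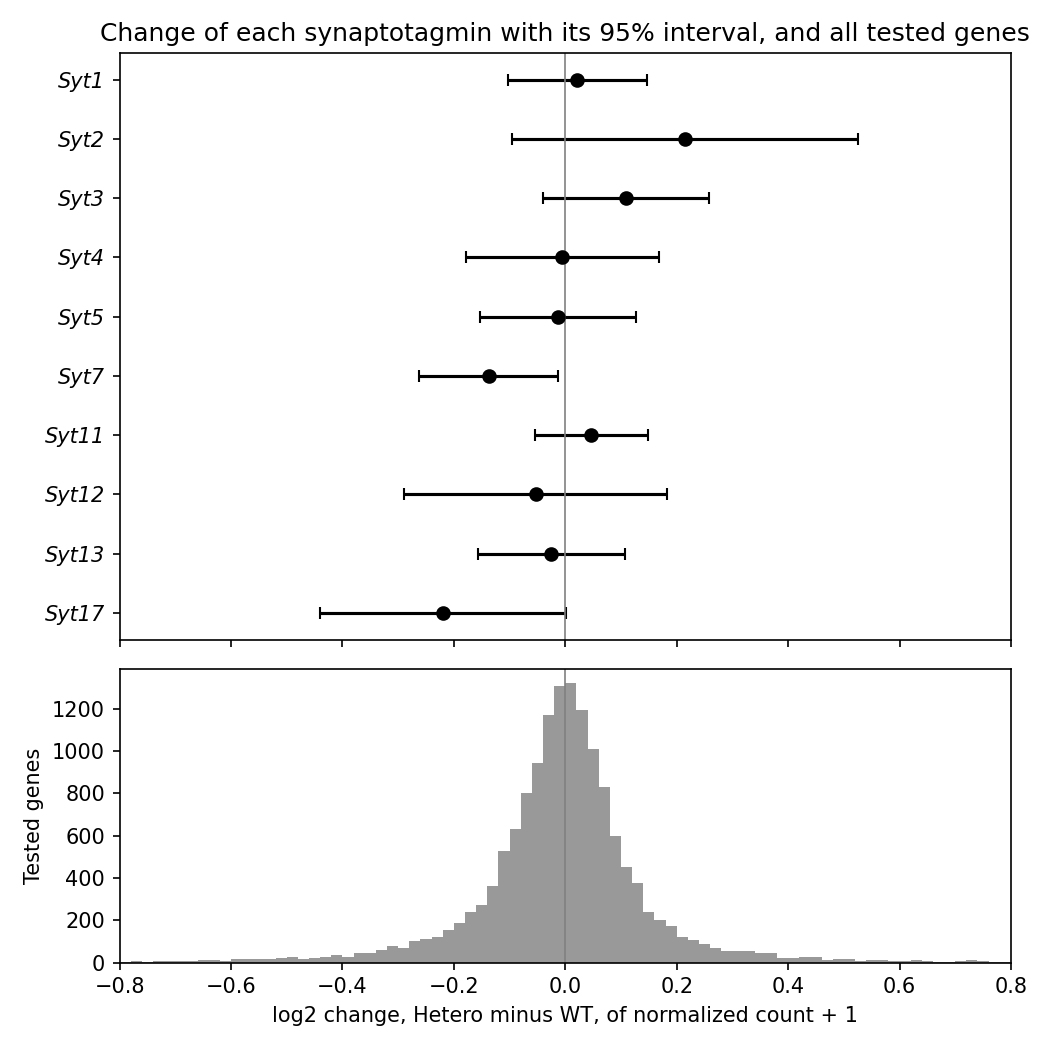
Upper panel, log2 change of normalized count + 1 (x axis, Hetero minus WT) of each synaptotagmin with its 95% limma interval; lower panel, number of tested genes per 0.02 of log2 change, with 134 genes outside the axis. The interval of Syt7 runs from -0.26 to -0.01 and those of the other 9 members include 0.

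The precision differed between members. For all 10, the 95% interval of the ratio lay within 1.5-fold in both directions, as for 80.9% of all tested genes. The widest intervals belonged to Syt2, Syt17 and Syt12, the 3 members of lowest normalized count. The median standard error of the log2 change was 0.06 over the members and 0.10 over all tested genes.

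The samples also differed in ways that the genotype did not follow. Syt2 had the widest range of the members, from -0.43 below its own mean in WT sample 3 to 0.26 above it in Hetero sample 2, on the log2 scale. Syt17 ranged from -0.28 in Hetero sample 3 to 0.24 in WT sample 1. Syt11 had the narrowest range, from -0.08 to 0.04. Within each group, Syt1, Syt2, Syt4, Syt7 and Syt17 were lowest and Syt11, Syt12 and Syt13 highest in the third sample. Syt3 and Syt5 followed neither order in both groups. Oligodendrocyte marker genes (7 of 7 measured) were highest there as well, with a mean centred log2 level of 0.35 in WT sample 3 and 0.18 in Hetero sample 3 against -0.28 to 0.03 in the others. The summed normalized count of these markers was 90856 to 146212 (WT) and 96018 to 125399 (Hetero), and their part in the synaptotagmin values was not tested.

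**Figure D4:**
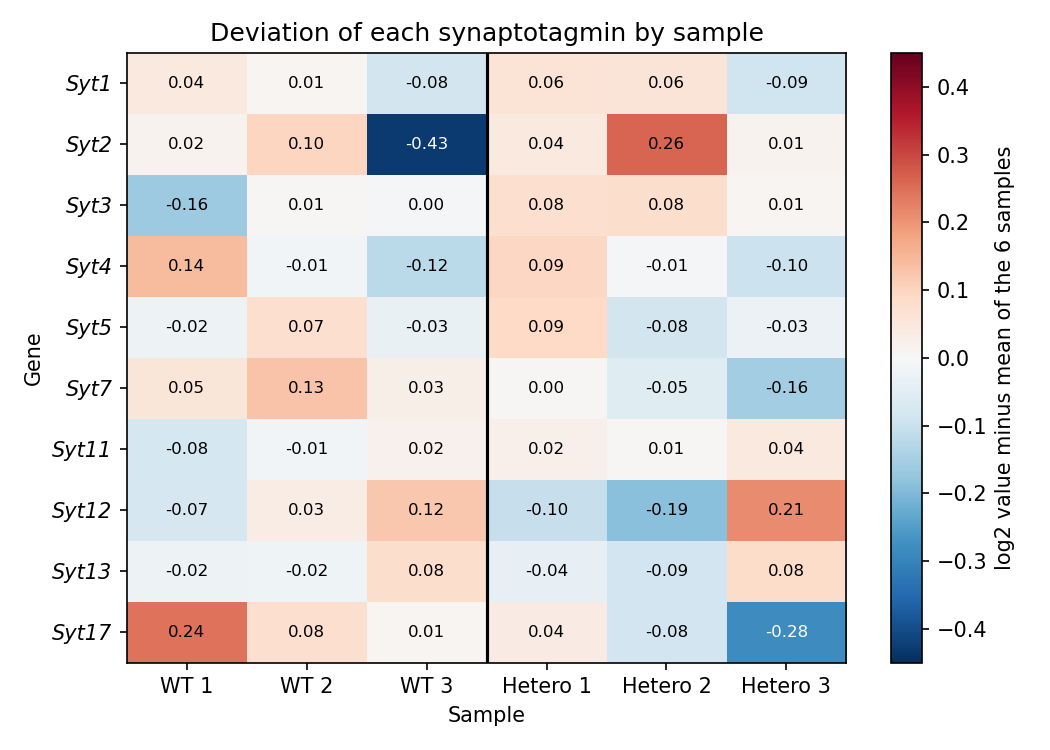
Deviation of the log2 value of each synaptotagmin (rows) from its own mean over the 6 samples (columns; the line separates WT from Hetero); red is above and blue below the mean. Syt2 in WT sample 3 (-0.43) and Syt17 in Hetero sample 3 (-0.28) are the lowest cells, and no row other than Syt7 and Syt3 separates the groups.

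The 5 tested genes whose centred log2 values lay closest to those of Syt2 over the 6 samples were Ufm1, Bmper, Taf4b, Prkd2 and Vasn, with root mean square differences of 0.03 for Ufm1 and 0.06 to 0.07 for the other 4. Ufm1, which encodes a ubiquitin-like modifier, read 1217, 1267 and 884 normalized counts in WT and 1233, 1434 and 1145 in Hetero. All 5 were lowest in WT sample 3 and highest in Hetero sample 2. With 6 samples and 14969 genes, close profiles of this kind are found by searching, and nothing further was read from them.

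The paralog shares were compared between the genotypes by exact permutation tests, in which 3 against 3 samples cannot give a two-sided p below 0.1. Per kilobase of principal transcript, Syt7 made up 32.6% ± 0.57 of the members' summed level in WT against 30.3% ± 0.62 in Hetero (n = 3 each, SD). The difference was -2.31 percentage points without overlap (exact two-sided permutation p = 0.1). Under the other 4 length definitions the difference in the Syt7 share lay between -1.21 and -0.84 points, and the groups did not overlap in any of them. The share of Syt17 was 1.02% in WT and 0.894% in Hetero, and that of Syt3 was 1.84% and 2.03%, both without overlap (exact permutation p = 0.1 each, n = 3). The share of Syt1 was 33.0% ± 1.01 in WT against 34.2% ± 1.01 in Hetero (n = 3 each, SD, exact permutation p = 0.2). This difference of 1.24 points was between 0.46 and 0.66 points under the other 4 definitions (exact permutation p between 0.6 and 0.7). The other 6 shares overlapped between the groups, with exact permutation p between 0.2 and 1.0. Shares add up to a whole, so a lower share of Syt7 raises the summed share of the others by construction, though not each of them.

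Ratios between paralogs were taken for 3 pairs within each sample. The normalized count of Syt7 was 0.263, 0.283 and 0.282 times that of Syt1 in WT samples 1 to 3 and 0.251, 0.241 and 0.249 times in Hetero samples 1 to 3. The log2 ratio was lower by a difference of -0.16 in Hetero, in 3 of 3 samples against every WT sample (exact two-sided permutation p = 0.1, adjusted over the 3 pairs 0.3). For Syt2 to Syt1 the log2 ratio differed by 0.19 with overlapping groups (exact permutation p = 0.2, adjusted 0.3), and by 0.07 without WT sample 3. The ratio of Syt11 to Syt4 was 4.40 to 5.67 in WT and 4.89 to 5.65 in Hetero, and its log2 value differed by 0.05 (exact permutation p = 0.7, adjusted 0.7). These ratios are of undivided normalized counts, and a length that is constant over samples does not alter their differences between groups.

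Of the 7 other synaptotagmin genes listed, 6 had a row and were tested, with 0 passing the threshold in limma, 5 fitted lower and 1 higher, and a median log2 change of -0.07. Syt10, a sensor of growth factor release in the olfactory bulb, had 95.2 ± 3.00 normalized counts in WT against 76.6 ± 9.22 in Hetero (n = 3 each, SD), without overlap, at an adjusted p of 0.9996. Among 12 other genes with C2 domains (Doc2, rabphilin, synaptotagmin-like and extended synaptotagmin genes), 11 were tested and 0 passed. At an unadjusted p under 0.05 there were 3 higher and 1 lower, against 3.83% of all tested genes in either direction and 2.17% lower. Sytl2, which encodes a Rab27 effector, had 2192 ± 70.4 normalized counts in WT against 2544 ± 79.1 in Hetero (n = 3 each, SD), a log2 change of 0.22 with an adjusted limma p of 0.9996. Doc2a, a gene for a calcium sensor of spontaneous and asynchronous release, differed by 0.17 on the log2 scale, also without overlap.

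The 18 vesicle fusion partners (SNARE, complexin, Munc13 and SV2 genes and others) were all tested, with 0 passing, 7 fitted higher and 11 lower, and a median log2 change of -0.05. Vamp1, a vesicle SNARE gene, read 3721 ± 307 normalized counts in WT against 4231 ± 173 in Hetero (n = 3 each, SD), a log2 change of 0.19. Unc13c, a priming factor gene, differed by -0.24 on the log2 scale with overlapping groups. Beside the Syt2 values, 8 listed genes of parvalbumin and other inhibitory neurons had 5 fitted higher and 3 lower, with 0 passing. The summed normalized count of these 8 genes was 27160 to 27932 in WT and 28848 to 29262 in Hetero, without overlap. That sum is weighted to the most abundant of the 8, and their median log2 change was 0.02. Taken singly, 3 of the 8 did not overlap, all of them higher, against 8.72% of all tested genes (4.40% higher). Kcnc1, a fast potassium channel gene, differed by 0.18 and Pvalb, the parvalbumin gene itself, by 0.28 on the log2 scale, at an adjusted limma p of 0.9996 each. The part of these cells in the Syt2 values was not tested.

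**Figure D5:**
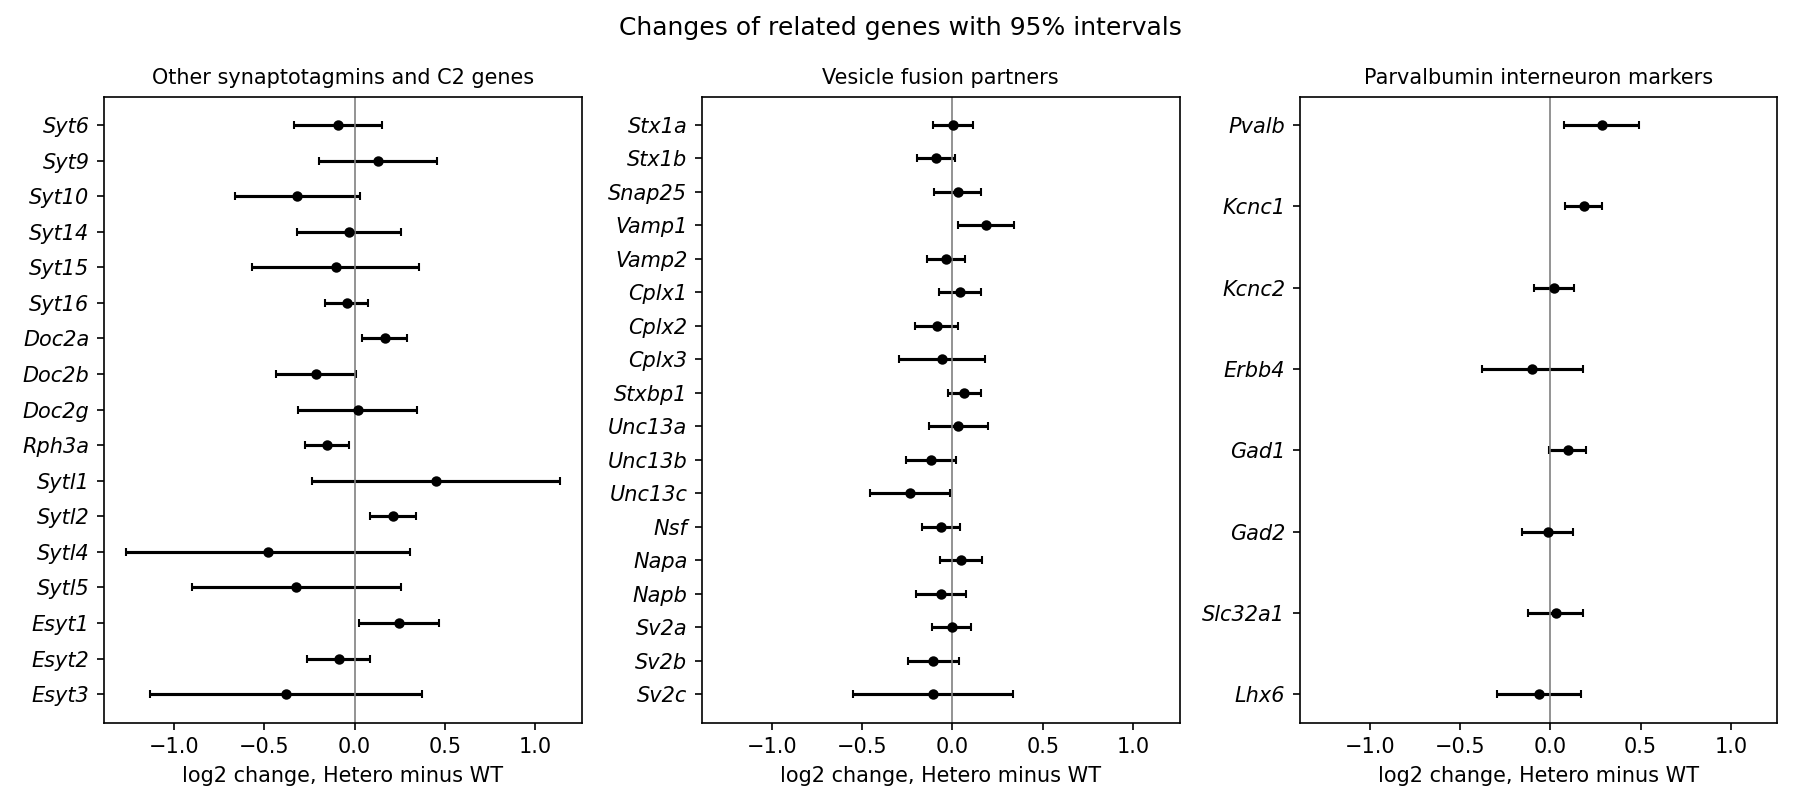
Log2 change (x axis, Hetero minus WT) with its 95% limma interval for the tested relatives of the synaptotagmins, for vesicle fusion partners and for parvalbumin interneuron markers. Sytl2 (0.22), Doc2a (0.17), Esyt1 (0.25), Vamp1 (0.19), Kcnc1 (0.18) and Pvalb (0.28) have intervals above 0. The rabphilin gene Rph3a (-0.15) and Unc13c (-0.24) have intervals below 0, and no plotted gene passed the adjusted threshold.

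Markers of the other cell types in the tissue gave these values beside the members. Fitted lower were 4 of 4 oligodendrocyte precursor, 8 of 8 microglia, 6 of 8 astrocyte, 6 of 7 oligodendrocyte, 3 of 4 endothelial and 4 of 8 excitatory neuron markers. Fitted lower were also 3 of 4 thalamic and 6 of 10 activity-regulated genes, and 0 genes of these lists passed the threshold in limma. The oligodendrocyte precursor markers had the lowest median log2 change of these lists, -0.26, and their summed normalized count was 6193 to 7085 in WT and 5183 to 5746 in Hetero. The groups did not overlap for 4 of these 4 markers, against 8.72% of all tested genes (4.32% lower). All 4 had an unadjusted limma p under 0.05, against 3.83% of all tested genes (2.17% lower). Gpr17 and Neu4, the 2 of smallest p, had log2 changes of -0.25 and -0.33. The other listed genes of smallest unadjusted p were Slc1a3 (-0.18) and Slc1a2 (-0.14) for astrocytes, Camk2a (-0.11) and Slc17a7 (-0.10) for excitatory neurons, and Ctss (-0.19) and Tmem119 (-0.18) for microglia, all as log2 changes. Among activity-regulated genes Jun had a log2 change of 0.73 without overlap. Their part in the synaptotagmin values was not tested.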

How the data were processed

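Per the labels' protocols, libraries of the 6 prefrontal cortex samples were made with a stranded mRNA kit. The authors deposited 1 table of normalized counts per gene, a non-negative signal with fractional values and similar column totals (29879143 to 30735443). Per the submitters' processing notes, the tools were DESeq2 1.19.11, Salmon 0.11.2 and R 3.6.0, with no role given, on GRCm38. Their scaling formula, filters and annotation: not given in the sources used here.

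Of the identifiers, 17875 matched GENCODE M21 and 14 did not. In each sample 15.5% to 27.9% of values under 60 were whole multiples of 1 step (within 0.02 of a step). The lowest of these percentages, 15.5%, was that of Hetero sample 3, so its estimate is the least certain. Whole reads were not recovered and no count test was run. The column total over the step gave the estimated reads.

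Values were tested as log2(value + 1) for genes with a mean of at least 10, with limma 3.58.1 in R 4.3.3 (intensity trend, robust fitting), two-sided, Benjamini-Hochberg over all tested genes, threshold 0.05. A log2 change on this scale understates changes of low genes. The fit was tested on simulated data. Shares and ratios had exact permutation tests. Lengths and 31-base stretches came from GENCODE M21, and coding sequences were aligned with Biopython 1.88. The members and lists were chosen with earlier results of these data known. Named for their values were all members, Cyfip2 and at most 2 genes of smallest p per list. The 5 genes nearest in profile to the member of widest range were named too. Esyt1 and Rph3a were named in a figure caption as plotted genes whose intervals did not include 0. Fos, Arc and Npas4 were named only as examples of their list. Tbr1 and Drd2 were added after their values were seen, as a check of the tissue. The list of striatal genes is not reported here. Same-numbered samples were not treated as pairs. Alternatives were fits without trend and robust fitting, quantile normalization, median centring, other filters and pseudocounts, a replicate block, a residual component, other lengths and left-out samples.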

Additional observations from a re-analysis of the deposited data

How the results depend on the processing

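No synaptotagmin passed the adjusted threshold under any of its 16 alternatives, the smallest adjusted p being 0.631, for Syt7 and for Syt17 with the residual component as a covariate. Syt2, Syt3, Syt7, Syt11 and Syt17 kept their direction in all 16. With quantile normalization Syt4 had a log2 change of 0.010 in place of -0.0052. Leaving out 1 sample at a time, the log2 change ranged from -0.015 to 0.072 for Syt1, -0.068 to 0.066 for Syt4, -0.062 to 0.025 for Syt5, -0.17 to 0.027 for Syt12 and -0.074 to 0.012 for Syt13, and for the others from 0.05 to 0.32 for Syt2, 0.055 to 0.14 for Syt3, -0.17 to -0.093 for Syt7, 0.020 to 0.068 for Syt11 and -0.29 to -0.13 for Syt17. The number of genes called, 0 as reported, was 2 with the replicate block, 2 with the residual component, 4 without the third sample of both groups, and 0 to 1 when 1 sample was left out; none was a synaptotagmin. Cyfip2 and Jun were called in the first 3 of these. Deviations of same-numbered samples correlated at -0.00503, 0.00436 and 0.227 for numbers 1 to 3, and those of differently numbered samples at -0.184 to 0.181. With 3 samples per group these values cannot decide whether the numbers pair the samples. With the replicate block the unadjusted limma p was 0.0123 for Syt17, 0.017 for Syt7 and 0.0288 for Syt2, with adjusted p of 0.74, 0.776 and 0.868. The exact test over the 3 same-numbered differences cannot go below 0.25.

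The share of Syt1 was 48.5% with coding length, 44.9% with the longest transcript and 47.8% undivided. That of Syt7 was 9.98% with the exon union, 11.9% with coding length, 8.54% with the longest transcript and 12.5% undivided. That of Syt11 was 22.9%, 19.8%, 17.9% and 19.9% in that order. The difference in share between Hetero and WT turned negative for 3 members with these 4 definitions: for Syt4 -0.042, -0.026, -0.036 and -0.025 points, for Syt5 -0.086, -0.037, -0.097 and -0.032, and for Syt13 -0.23, -0.14, -0.18 and -0.14. With these definitions Syt7 takes a smaller part of the total. Leaving out 1 sample, it ranged from -0.050 to 0.22 for Syt4, -0.022 to 0.27 for Syt5, -0.11 to 0.055 for Syt12 and -0.35 to 0.30 for Syt13, and the log2 ratio from -0.046 to 0.14 for Syt11 to Syt4, 0.067 to 0.28 for Syt2 to Syt1 and -0.19 to -0.14 for Syt7 to Syt1. For the share of Syt2 the range was 0.044 to 0.13 points, for Syt3 0.11 to 0.24, for Syt11 0.37 to 1.09 and for Syt17 -0.16 to -0.078. The Syt7 share difference ranged from -2.57 to -1.97 points. Depth is known only as an estimate, so counting error of single values is not given.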
